A study of Homo sapiens with 6 samples.

Results

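The 10 genes described here encode the core enzymes of DNA methylation and of Polycomb repressive complex 2 (PRC2). They were taken by symbol from the deposited count table: DNMT1, DNMT3A, DNMT3B, UHRF1, TET1, TET2, TET3, EZH2, SUZ12 and EED. All 10 were among its 20289 genes and all 10 passed the filter on low counts, which 13265 genes passed. The RNA came from Huh7 cells, an established human hepatocellular carcinoma line. There were 3 libraries of wild-type cells and 3 of cells with UBE2S knocked out, and the labels name no drug or time point. The series was made to find genes downstream of UBE2S, a ubiquitin-conjugating enzyme that extends ubiquitin chains for the anaphase-promoting complex. The sources used here do not say how the knockout was made or whether its 3 libraries come from 1 clone. P-values therefore measure the spread between these libraries, which may be technical.

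DNA methylation is copied at each cell division: UHRF1 recognises hemimethylated DNA behind the replication fork and recruits DNMT1, which methylates the new strand. DNMT3A and DNMT3B place methylation at new sites, and the TET dioxygenases oxidise 5-methylcytosine, a step towards its removal. PRC2 methylates lysine 27 of histone H3, a mark of repressed developmental genes; EZH2 is its catalytic subunit, and SUZ12 and EED are needed for its activity. UHRF1, DNMT1 and EZH2 are known as genes of proliferating cells under E2F control, and high UHRF1 and EZH2 levels are a known feature of liver cancer.

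Because E2F factors are known regulators of several of these genes, their promoters were searched for E2F motifs. RefSeq (GRCh38.p14) windows of 300 bases, 250 before each transcription start and 50 from it on, were found for all 10 genes, 22 windows in all. They were searched on both strands for 4 spellings of the E2F consensus, TTTCCCGC, TTTCGCGC, TTTGCCGC and TTTGGCGC. These cannot overlap on 1 strand but can on opposite strands, and no matches overlapped in these windows. A match was found in 5 of the 22 windows, near UHRF1, DNMT1, EZH2 and SUZ12, and in 3.31% of all 35116 windows. Counted by gene, 4 of the 10 had a match in any window, against 3.99% of 27305 genes. Wholly before the start, matches were found in 3 of the 22 windows, near UHRF1 and SUZ12 alone, against 2.79%. The background was not matched to the 10 genes for base composition, and the 10 genes had more windows each. The start in the only DNMT3B window lay 17467 bases from its main annotated start, and the nearest TET3 start 1494 bases. The bases just before those main starts were thus not searched.

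The 4 genes with a match are shown: 3 of the 5 genes that passed the test below, and SUZ12 of the 5 that did not. Whether a match goes with a change was not tested. UHRF1 had a match in 2 of its 3 windows, and the one of these closer to the main annotated start was taken. Printed are the 250 bases before the start and 10 bases from it, a length chosen after the matches were seen so as to include each of them. The stretches are chr19:4909894-4910153 on the plus strand for UHRF1, chr19:10194944-10195203 on the minus strand for DNMT1, chr7:148884282-148884541 on the minus strand for EZH2 and chr17:31936757-31937016 on the plus strand for SUZ12. Capitals mark the match, and each sequence runs 5′ to 3′ on the gene's own strand.
UHRF1: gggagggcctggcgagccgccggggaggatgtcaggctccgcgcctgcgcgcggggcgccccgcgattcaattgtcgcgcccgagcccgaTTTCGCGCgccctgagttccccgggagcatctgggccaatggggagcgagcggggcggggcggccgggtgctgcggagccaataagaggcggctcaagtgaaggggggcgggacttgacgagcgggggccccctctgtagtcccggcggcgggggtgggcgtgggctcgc
DNMT1: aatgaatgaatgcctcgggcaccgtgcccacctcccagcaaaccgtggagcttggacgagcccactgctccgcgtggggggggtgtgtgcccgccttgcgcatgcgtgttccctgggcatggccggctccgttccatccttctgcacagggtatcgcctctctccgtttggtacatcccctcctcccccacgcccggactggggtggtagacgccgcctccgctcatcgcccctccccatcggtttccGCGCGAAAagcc
EZH2: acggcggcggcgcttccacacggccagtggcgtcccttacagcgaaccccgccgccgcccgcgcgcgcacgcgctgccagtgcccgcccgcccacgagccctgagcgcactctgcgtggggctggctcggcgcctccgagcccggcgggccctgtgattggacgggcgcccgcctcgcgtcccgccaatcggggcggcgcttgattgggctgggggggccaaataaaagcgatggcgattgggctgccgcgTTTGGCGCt
SUZ12: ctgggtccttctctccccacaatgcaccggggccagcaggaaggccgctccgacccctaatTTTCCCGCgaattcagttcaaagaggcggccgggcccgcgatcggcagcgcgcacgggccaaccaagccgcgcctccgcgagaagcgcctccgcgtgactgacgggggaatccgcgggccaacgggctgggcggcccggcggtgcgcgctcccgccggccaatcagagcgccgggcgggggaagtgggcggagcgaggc
The match began 160 bases before the start in UHRF1, 189 before it in SUZ12 and 2 before it in DNMT1, where it lies on the opposite strand. In EZH2 it began at base 2 of the transcript. The starts used are those of RefSeq. They lay 223 bases from the main annotated start in UHRF1, 182 in DNMT1, 13 in EZH2 and 11 in SUZ12. These 4 genes did not move together: as given below, UHRF1 fell, DNMT1 and EZH2 rose, and SUZ12 did not pass the test. A match is a description of the letters and does not show that a factor binds there.

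The libraries held 21840499 to 27910396 estimated counts each, and the 10 genes had 342 to 10674 counts per library. Levels are given as CPM, the counts of a gene after every library was brought to a common size. UBE2S itself measured 234, 219.98 and 216 CPM in the wild-type libraries, and the knockout libraries measured 47.6, 45.4 and 44.2. Its log2 fold change was -2.29 ± 0.04 (SE), with an adjusted p of 1.6e-12 in edgeR. All 10 hepatocyte markers were detected, with AFP at 12606 ± 45.6 CPM in wild type (mean ± SD, n = 3). Of these 10, 2 were called higher and 8 lower, and together they summed to 31481 to 32103 CPM in wild-type and 28474 to 29027 CPM in knockout libraries. Among 12 markers of other cell types, CD3E was at 0 in every library and PTPRC, VWF, CDH5, ACTA2 and KRT7 were too low to test. Of the 6 tested, 2 were higher and 3 lower. The share called was 100% of the hepatocyte markers and 83.3% of these 6. Over all tested genes it was 60.1%, with 29.4% higher and 30.7% lower. The 12 summed to 398 to 417 CPM in wild-type and 284 to 289 CPM in knockout libraries, mostly LYZ and KRT19. The part of either marker list in the results was not tested. Wild-type replicate 1 stood apart from the other wild-type libraries, with chi-square values of 8.41 and 10.9 per degree of freedom against 1.40 to 1.80 for other pairs within groups. The 5 calls given next were also made without it.

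Of the 10 genes, 4 were higher in the knockout (TET1, EZH2, DNMT3A and DNMT1), 1 was lower (UHRF1), and 5 did not pass the test (edgeR quasi-likelihood, adjusted p below 0.05 over all tested genes). Over all tested genes 60.1% were called, 29.4% higher and 30.7% lower, so a share of 50% is near the background. Among tested genes at the levels of these 10, 65.9% were called. The median log2 fold change of the 10 genes was 0.02, against -0.00057 over all tested genes. The 2 groups did not overlap at 7 of the 10 genes, and at 65.8% of all tested genes. The same number of the 10, 4 higher and 1 lower, was called by DESeq2 (44.6% of all genes), by limma-voom (59.8%), with the replicate number as a block (59.7%) and at a threshold of 0.01 (48.8%). When a change of more than 1.2-fold was required, TET1 and UHRF1 were left, against 26.2% of all tested genes. In bulk RNA such as this, fewer cells that express a gene and less RNA per cell cannot be told apart.

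**Figure D1:**
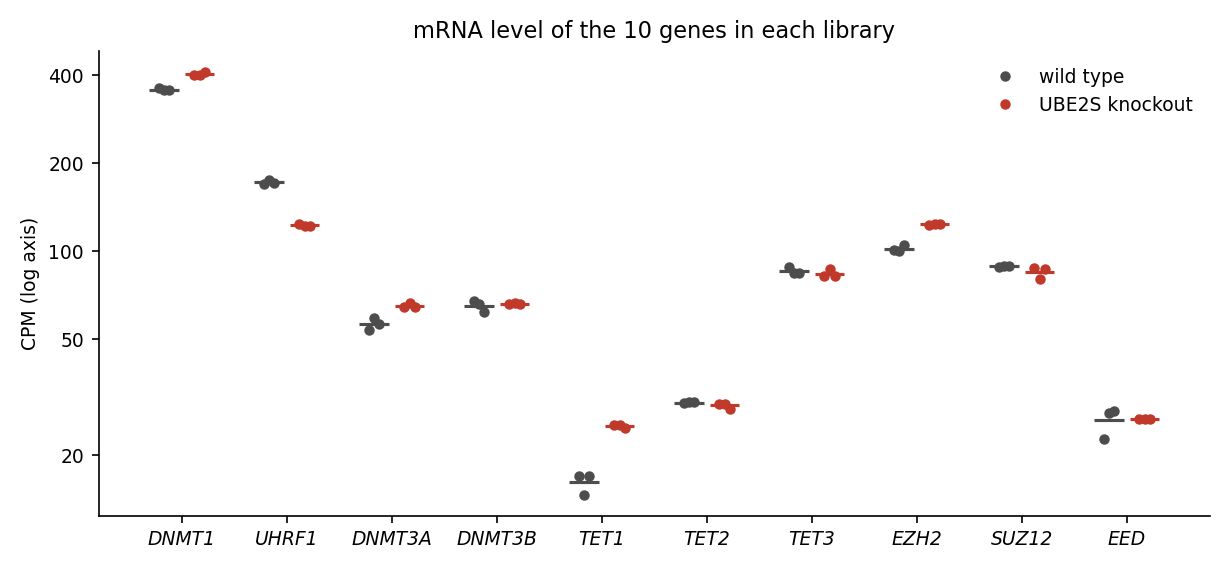
mRNA level of each gene in CPM (log axis) in the 3 wild-type (grey) and 3 UBE2S knockout (red) libraries; points are libraries and lines are group means. TET1 (mean 16.2 to 25.2 CPM) and UHRF1 (mean 172 to 123 CPM) showed the widest separation, whereas the 2 groups of DNMT3B, TET3 and EED overlapped.

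The maintenance pair moved in opposite directions. UHRF1 read 170.4, 176 and 171 CPM in the wild-type libraries and 124, 122 and 122 CPM in the knockout libraries. All 3 knockout libraries lay far below the lowest wild-type library, and the mean was lower by 28.95%. In edgeR the log2 fold change of UHRF1 was -0.49 ± 0.03 (SE), with an adjusted p of 2.8e-08. DNMT1, its partner enzyme, read 361, 356 and 356 CPM in the wild-type libraries and 402, 401 and 412 CPM in the knockout libraries. The groups did not overlap, and the mean was higher by 13.2% (0.18 ± 0.03 on the log2 scale, edgeR adjusted p = 9.1e-05). For each UHRF1 count, the wild-type libraries held 2.12, 2.03 and 2.08 DNMT1 counts and the knockout libraries 3.25, 3.29 and 3.37. This ratio does not depend on library scaling; it was 0.67 higher on the log2 scale, with an exact two-sided permutation p = 0.1, the smallest that 3 against 3 libraries can give.

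UHRF1 (ENSG00000276043) is on chromosome 19, plus strand, at 4903080 to 4962154 in GRCh38, by GENCODE release 29. DNMT1 (ENSG00000130816) is on the minus strand of the same chromosome at 10133345 to 10231286. In that annotation DNMT1 shares exon sequence with S1PR2, a sphingosine phosphate receptor gene on the same strand. S1PR2 had 135 to 198 counts per library, against 8306 to 10674 for DNMT1, and how reads of the shared part were divided is not known.

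The de novo enzymes differed from each other. DNMT3A read 53.8, 58.8 and 56.4 CPM in the wild-type libraries and 64.3, 66.7 and 64.4 CPM in the knockout libraries, with every knockout library above every wild-type library. Its log2 fold change was 0.21 ± 0.04 (SE; edgeR adjusted p = 7.8e-04). DNMT3B, the form known for its high level in embryonic cells, read 67.4, 65.97 and 62.03 CPM in the wild-type libraries and 65.8, 66.3 and 66.00 CPM in the knockout libraries. The DNMT3B groups overlapped, and the change of 0.02 ± 0.04 on the log2 scale did not pass (edgeR adjusted p = 0.68, limma-voom 95% interval -0.07 to 0.11). The DNMT3A to DNMT3B count ratio ran 0.798, 0.892 and 0.909 over the wild-type libraries and 0.979, 1.01 and 0.976 over the knockout libraries (exact permutation p = 0.1, adjusted p = 0.16 over 8 pairs). The groups of this ratio did not overlap either. DNMT3A (ENSG00000119772) is on chromosome 2, minus strand, at 25227855 to 25342590, and DNMT3B (ENSG00000088305) on chromosome 20, plus strand, at 32762385 to 32809356.

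Among the TET genes, TET1 had the largest change of the 10. It read 17.01, 14.7 and 16.9 CPM in the wild-type libraries and 25.4, 25.4 and 24.7 CPM in the knockout libraries. Every knockout library was above every wild-type library, and the mean was higher by 55.3%. The log2 fold change was 0.63 ± 0.06 (SE; edgeR adjusted p = 2.8e-06), at least as large in size as that of 85.6% of tested genes. TET2, which is often mutated in blood cancers, read 30.1, 30.3 and 30.4 CPM in the wild-type libraries and 29.97, 30.1 and 28.9 CPM in the knockout libraries. The knockout values were all slightly below the wild-type values, but TET2 did not pass the test (-0.03 ± 0.05 on the log2 scale, edgeR adjusted p = 0.57). Its limma-voom 95% interval was -0.13 to 0.07.

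TET3 read 88.6, 84.1 and 84.5 CPM in the wild-type libraries and 82.4, 86.6 and 82.2 CPM in the knockout libraries, so the groups overlapped. Its log2 fold change of -0.03 ± 0.04 did not pass (edgeR adjusted p = 0.45), with a limma-voom 95% interval of -0.12 to 0.05. For each TET2 count, the wild-type libraries held 0.564, 0.484 and 0.557 TET1 counts and the knockout libraries 0.847, 0.846 and 0.855 (exact permutation p = 0.1). The groups of this ratio did not overlap. The ratio of TET2 to TET3 averaged 0.354 in both groups, which overlapped (exact permutation p = 1). TET1 (ENSG00000138336) is on chromosome 10 at 68560656 to 68694482, TET2 (ENSG00000168769) on chromosome 4 at 105145875 to 105279816 and TET3 (ENSG00000187605) on chromosome 2 at 73986404 to 74108176, each on the plus strand.

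In PRC2 the catalytic subunit rose and neither SUZ12 nor EED passed the test. EZH2 read 101, 100.4 and 105 CPM in the wild-type libraries and 123, 124 and 124 CPM in the knockout libraries. The groups did not overlap, and the mean was higher by 21.2% (0.28 ± 0.03 on the log2 scale, edgeR adjusted p = 8.2e-06). SUZ12, the scaffold subunit, read 88.2, 88.7 and 89.1 CPM in the wild-type libraries and 87.5, 80.1 and 86.7 CPM in the knockout libraries. All 3 knockout values were lower, but the change of -0.06 ± 0.04 on the log2 scale did not pass (edgeR adjusted p = 0.17, limma-voom 95% interval -0.15 to 0.02). SUZ12 has a pseudogene copy, and how reads were divided between similar sequences is not known.

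EED, which binds the methyl mark and stimulates the enzyme, read 22.8, 27.88 and 28.3 CPM in the wild-type libraries and 26.6, 26.6 and 26.5 CPM in the knockout libraries. The low value was that of wild-type replicate 1. Its log2 fold change was 0.02 ± 0.07 (SE; edgeR adjusted p = 0.87), with a limma-voom 95% interval of -0.14 to 0.19. For each SUZ12 count, the wild-type libraries held 1.14, 1.13 and 1.17 EZH2 counts and the knockout libraries 1.40, 1.55 and 1.43 (exact permutation p = 0.1). Against EZH1, the paralog that can replace EZH2 in the complex, the ratio ran 5.99, 6.39 and 7.002 over the wild-type libraries and 6.25, 7.68 and 6.81 over the knockout libraries, so the groups overlapped (exact permutation p = 0.5). EZH2 (ENSG00000106462) is on chromosome 7, minus strand, at 148807383 to 148884321. SUZ12 (ENSG00000178691) is on chromosome 17 at 31937018 to 32001045 and EED (ENSG00000074266) on chromosome 11 at 86244544 to 86278813, both on the plus strand.

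**Figure D2:**
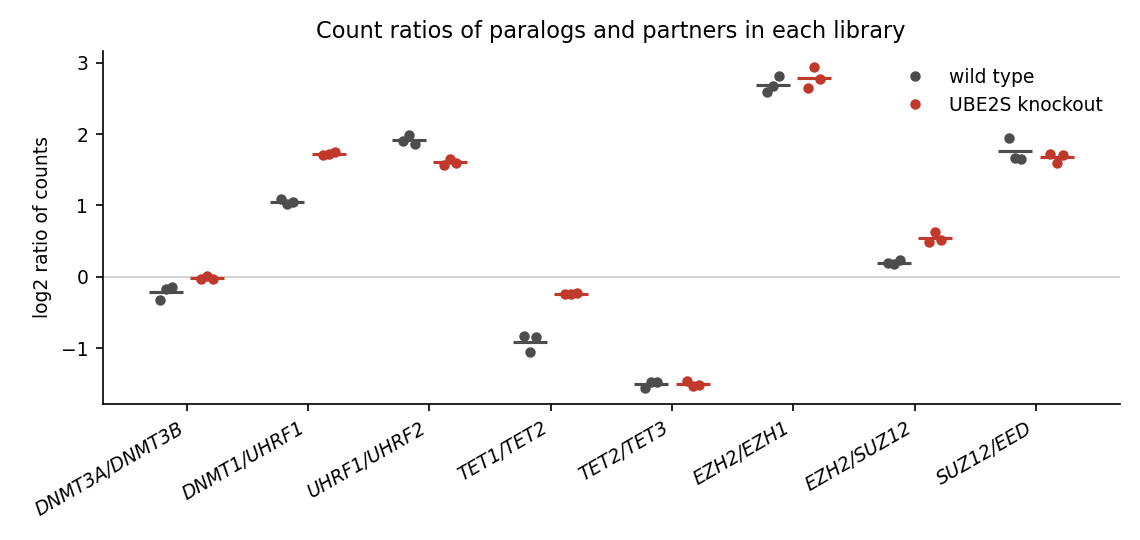
Ratio of the counts of 2 genes within each library, on a log2 scale, in wild-type (grey) and UBE2S knockout (red) libraries; lines are group means. DNMT1 to UHRF1 and TET1 to TET2 moved by 0.67 each, UHRF1 to UHRF2 by -0.31, and the groups of TET2 to TET3, EZH2 to EZH1 and SUZ12 to EED overlapped.

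Levels were compared between genes per kilobase of the main annotated transcript. In wild type DNMT1 was highest, at 66.1 ± 0.571 CPM per kilobase, followed by UHRF1 (53.4 ± 0.923), EZH2 (38.6 ± 0.890) and SUZ12 (19.7 ± 0.0970; mean ± SD, n = 3 for each). DNMT3B (15.02 ± 0.643), EED (11.8 ± 1.37), TET3 (7.53 ± 0.218), DNMT3A (5.93 ± 0.267), TET2 (2.98 ± 0.0143) and TET1 (1.74 ± 0.143) came next on this scale. Each pair of neighbours in this order was further apart than the sum of their SDs. In the knockout UHRF1 was at 37.9 ± 0.322 CPM per kilobase, below EZH2 at 46.8 ± 0.321, so these places in the order were exchanged. The exchange also held per kilobase of all annotated exons, where UHRF1 went from 33.5 to 23.8 and EZH2 from 22.5 to 27.3 CPM per kilobase. Other places depended on the length used. Per kilobase of all exons in wild type, EED was at 3.75, below TET3 at 6.98 and DNMT3A at 4.69, and DNMT3B at 14.1 was above SUZ12 at 13.5 CPM per kilobase. In the knockout TET1 was at 2.71 CPM per kilobase by either length, above TET2 per kilobase of all exons (1.80) and below it per kilobase of the main transcript (2.92).

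The 5 genes that passed the test lay among chromosome neighbours whose median had the same sign. For each gene, the median log2 fold change of the 25 tested genes on each side was taken. It was -0.52 around UHRF1, whose own value was -0.49, and 41 of its 50 neighbours were called lower while 9 were not called. Around TET1 (0.63) it was 0.46, with 38 neighbours higher and 5 lower. Around EZH2 (0.28) it was 0.23, with 24 higher and 9 lower, and around DNMT1 (0.18) it was 0.24, with 34 higher and 5 lower. DNMT3A (0.21) had neighbours with a median of 0.07, 17 higher and 12 lower. Around the 5 genes that did not pass the test, the neighbour medians lay between -0.02 and 0.04.

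**Figure D3:**
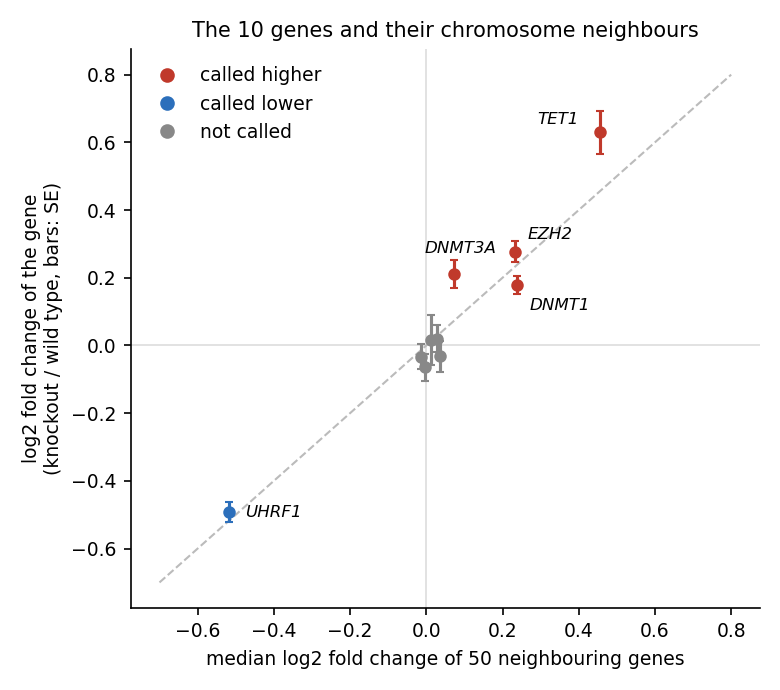
Log2 fold change of each gene (vertical, bars are SE) against the median of its 50 tested chromosome neighbours (horizontal); the dashed line marks equality, red is called higher, blue called lower and grey not called. UHRF1 sits at -0.49 against -0.52 and TET1 at 0.63 against 0.46, and the 5 uncalled genes cluster near 0.

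UHRF1 and DNMT1 are 5.23 Mb apart on chromosome 19 with 88 tested genes between them. Their neighbour windows shared no gene, and the medians of the windows had opposite signs, as UHRF1 and DNMT1 did. The nearest tested genes on either side of UHRF1 were PLIN3 (-0.53 ± 0.04), a lipid droplet protein gene, and the histone demethylase gene KDM4B (-0.12 ± 0.05; log2 fold change ± SE throughout). Those of DNMT1 were EIF3G (0.26 ± 0.04), a translation initiation factor gene, and S1PR2 (0.38 ± 0.10). As given above, S1PR2 shares exon sequence with DNMT1, so its value may hold DNMT1 reads. TET1 lay between the mitochondrial carrier gene SLC25A16 (0.64 ± 0.05) and CCAR1 (0.04 ± 0.04), a cell cycle and apoptosis regulator gene, which was not called. EZH2 lay between the cullin gene CUL1 (0.22 ± 0.03) and the chaperone gene PDIA4 (-0.19 ± 0.03). Beside DNMT3A, EFR3B (-0.02 ± 0.12) was not called and the dystrobrevin gene DTNB (0.41 ± 0.10) was higher.

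**Figure D4:**
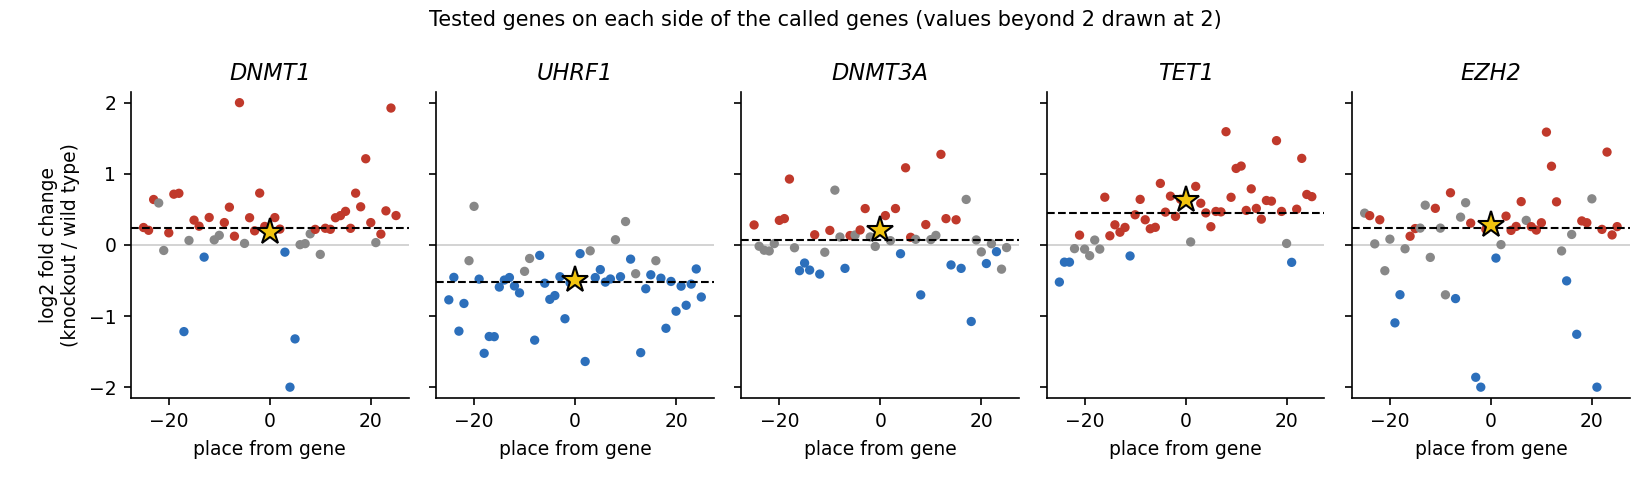
Log2 fold change of the 25 tested genes on each side of the 5 called genes, by place along the chromosome (0 is the gene itself, drawn as a star; the dashed line is the median of the 50 neighbours; red higher, blue lower, grey not called; values beyond 2 in size are drawn at 2). Of the 50 neighbours of UHRF1, 41 were called lower, and of those of TET1, 38 were called higher.

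The neighbour median was then taken out of the knockout values and the model refitted. TET1 (0.17, edgeR adjusted p = 0.035) and DNMT3A (0.14, edgeR adjusted p = 0.014) passed as higher. Of all tested genes 54.5% passed, 26.8% higher and 27.7% lower. UHRF1 (0.03, edgeR adjusted p = 0.49), DNMT1 (-0.06, edgeR adjusted p = 0.076) and EZH2 (0.04, edgeR adjusted p = 0.25) did not pass, and UHRF1 and DNMT1 changed sign, as they also did with 50 neighbours on each side but not with 10. With 10 DNMT3A was not called and SUZ12 was lower, against 55.2% of all genes called, and with 50 DNMT1 was lower, against 54.5%. The offset came from the same libraries, and its own error is not part of these p-values.

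Across the 10 genes, Pearson's r between a gene's log2 fold change and its neighbour median was 0.96 and Spearman's rho 0.92. Across all 13222 tested genes with a position r was 0.27, and across the 7276 at the levels of these 10 it was 0.48. All values come from the same 6 libraries, so this is a description. Of the 10 genes 8 lay within 0.1 of their neighbour median, a distance chosen after the values were seen, against 29.3% of all tested genes and 37.3% of those at like levels. These 8 include the 5 genes that did not pass the test, and TET1 and DNMT3A lay further away. The median size of the change was 0.12 for the 10 genes, 0.22 for all genes with a position and 0.17 at like levels. The shares are thus not compared at like sizes of change. What moved the neighbourhoods was not tested.

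The other genes of these pathways were read from lists. Of 139 tested genes in 10 lists, 41 were higher and 43 lower, a share called of 60.4% against 60.1% of all tested genes. Among other PRC2 subunits, 5 of 11 were higher and 3 lower (median log2 fold change 0.16), a share called of 72.7%. EPOP, an accessory subunit that links PRC2 to elongin, went from 11.6 ± 0.828 to 23.5 ± 0.617 CPM (1.02 ± 0.06 on the log2 scale, edgeR adjusted p = 4.5e-08). LCOR, whose locus also encodes a PRC2 accessory protein, rose by 0.38 (SE 0.03), and its neighbours had a median of 0.34. JARID2, which recruits PRC2 to its targets, fell by 0.33 (SE 0.05), and the histone chaperone gene RBBP4 fell by 0.30 (SE 0.03). With the neighbour median removed, EPOP (0.97) and JARID2 (-0.34) were still called, and LCOR (0.04) and RBBP4 (-0.07) lost their calls.

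Polycomb repressive complex 1 (PRC1) ubiquitinates histone H2A and binds the mark that PRC2 makes. Of its 27 tested subunits 7 were higher and 10 lower (median -0.08), a share called of 63% against 60.1% of all tested genes. AUTS2, part of an activating PRC1 form, went from 3.41 ± 0.617 to 8.12 ± 0.232 CPM, and PHC1, a polyhomeotic subunit, rose by 0.88 (SE 0.06). L3MBTL2 (-0.43 ± 0.04) and SCML2 (-0.39 ± 0.06), which bind methylated histones or nucleosomes, fell. With the neighbour median removed, 10 of the 27 were higher and 6 lower (median 0.01), against 26.8% and 27.7% of all tested genes. SCML2 was then at -0.06 and not called, and L3MBTL2 at -0.16 and still called. Among enzymes that remove Polycomb marks and their partners, 4 of 11 were higher and 7 not called (median 0.07). This share called, 36.4%, was below the 60.1% of all tested genes. ASXL1, a partner of the deubiquitinase BAP1, was at 0.25 ± 0.03, and FOXK1, a forkhead factor that binds BAP1, at 0.21 ± 0.05, or -0.09 and not called with its neighbour median removed.

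In the DNA methylation pathway, partners and methyl donor enzymes had 1 of 7 higher and 2 lower (median -0.01). This share called, 42.9%, was below the 60.1% of all tested genes. UHRF2, the paralog of UHRF1, fell by 0.18 (SE 0.05), and the ratio of UHRF1 to UHRF2 counts went from a mean of 3.78 to 3.05 (exact permutation p = 0.1). MAT2A, which makes the methyl donor S-adenosylmethionine, fell by 0.17 (SE 0.03), and AHCY, which clears its product, rose by 0.09 (SE 0.03), a call lost with its neighbour median removed (0.07, edgeR adjusted p = 0.074). DNMT3L, the cofactor of the de novo enzymes, had at most 2 counts in a library. Proteins that read methylated CpG had 1 of 8 genes higher and 3 lower (median -0.10), a share called of 50% against the same 60.1%. ZBTB33 was at 0.22 ± 0.05, MBD3 at -0.37 ± 0.04 and MBD1 at -0.16 ± 0.04. With the neighbour median removed, MBD3 was at 0.06 and no longer called, and MBD1 was at -0.27.

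Genes that complete DNA demethylation or supply the TET cofactor had 8 of 15 higher and 5 lower (median 0.22). The share called was 86.7%, against 60.1% of all tested genes (29.4% higher and 30.7% lower). With the neighbour medians removed, 7 were higher and 4 lower (median 0.05), against 26.8% and 27.7% of all tested genes. CXXC4, whose product binds TET2, averaged 1.51 ± 0.190 CPM over the wild-type and 2.99 ± 0.0866 CPM over the knockout libraries. GADD45G, a stress-induced gene, averaged 1.08 ± 0.227 and 1.81 ± 0.198 CPM. Their log2 fold changes were 0.98 ± 0.16 and 0.74 ± 0.22. The base excision nuclease gene APEX1 fell by 0.51 (SE 0.04) and IDH1, which makes the TET cofactor 2-oxoglutarate, by 0.37 (SE 0.03). The APEX1 value was -0.28, still called, with its neighbour median removed.

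E2F and S phase genes were read because UHRF1, DNMT1 and EZH2 are expressed with them. Of 25 genes 12 were lower and 3 higher (median -0.10), and 9 lower and 2 higher with the neighbour medians removed. The share called was 60%, against 60.1% of all tested genes. Of all tested genes 30.7% were lower and 29.4% higher, or 27.7% and 26.8% with the neighbour medians removed. TYMS, the thymidylate synthase gene, went down from 203 to 126 CPM (-0.69 ± 0.03 on the log2 scale). E2F2 fell by 0.51 (SE 0.07), E2F3 rose by 0.38 (SE 0.04) and MCM6, a helicase subunit gene, rose by 0.23 (SE 0.03). With the neighbour median removed, E2F2 was at -0.26 and MCM6 at 0.12, both still called.

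**Figure D5:**
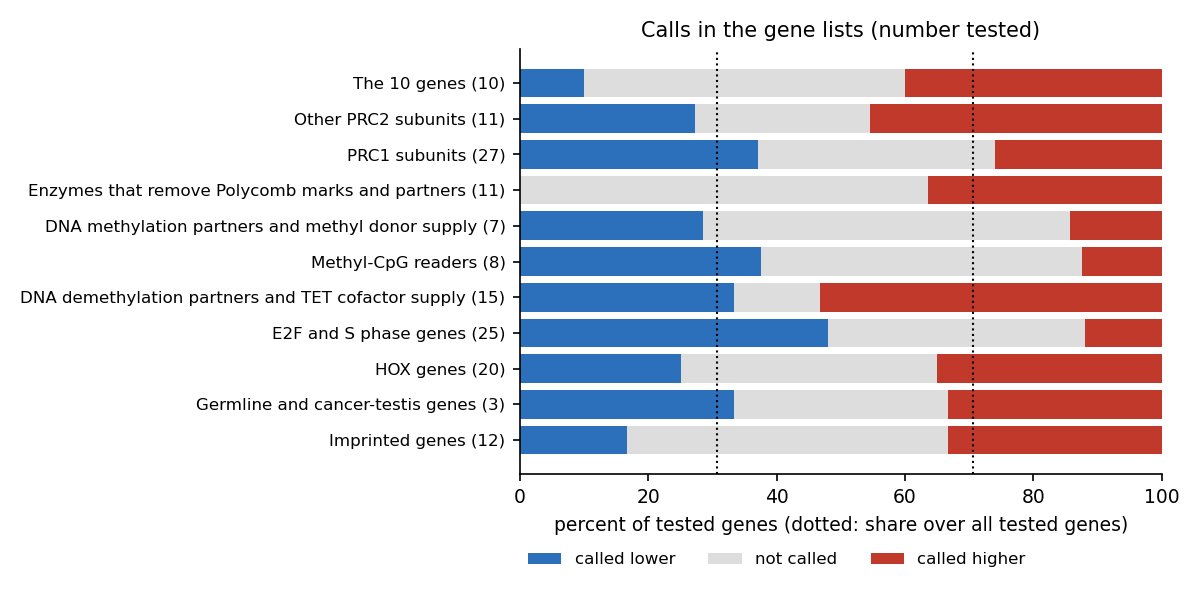
Share of tested genes called lower (blue), not called (grey) and called higher (red) among the 10 genes and in each list, with the number tested in brackets; dotted lines mark 30.7% lower and 29.4% higher over all tested genes. E2F and S phase genes had 12 of 25 lower, and the demethylation partners 8 of 15 higher.

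By a rule of likeness, the 3 genes whose log2 CPM followed TET1 most closely over the 6 libraries were AUTS2 (Pearson's r 0.999), the ubiquitin ligase adaptor gene WAC (0.999) and SOCS2 (0.999), a brake on cytokine signalling. These 3 were picked as the highest of 10605 genes compared, of which 84 had an r above 0.99. With 2 groups of libraries a high r can reflect the group difference alone, and this was not tested.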

How the data were processed

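Poly(A) RNA of Huh7 cells was sequenced in 3 wild-type and 3 UBE2S knockout libraries, grouped and numbered by sample titles. Per the labels' protocols, oligo(dT)-enriched RNA was made into libraries with a NEBNext Ultra kit. The submitters' processing notes name HISAT2, Bowtie2 (2.2.8), StringTie (1.3.1) and DESeq2 without saying what each did. The quantifier, genome build, annotation and strand setting are not given in these sources.

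The authors deposited estimated counts per gene, not normalized; they were rounded to whole numbers (all values of the 10 genes were whole already). edgeR 4.0.16 in R 4.3.3 was used with filterByExpr (minimum count 10), TMM scaling, quasi-likelihood F tests of knockout against wild type without covariates, and Benjamini-Hochberg adjustment over 13265 genes at 0.05. SEs came from the log2 fold change and its F statistic, and CPM used the TMM-scaled library size. Intervals of 95% came from limma-voom (limma 3.58.1). Pairs of genes were compared by exact permutation, 8 pairs in all. Positions and lengths came from GENCODE release 29 (GRCh38), which matched 99.4% of identifiers; promoter windows came from RefSeq. For the neighbour correction, the median of 25 tested genes on each side entered the model as an offset of the knockout libraries.

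Data were simulated for knockout against wild type over 13265 genes, with 50 genes changed at each size. In them edgeR recovered 52% of genes changed by 0.2 on the log2 scale, 74% at 0.3, 78% at 0.5 and 94% at 1. There were 9 false calls among 158 calls, whereas the real data gave 7975 calls. The adjustment of p-values depends on the share of changed genes, so these rates do not carry over to the real test. The 10 genes and the lists were chosen with earlier results of these data known. Genes named in a list were its up to 2 called genes per direction with the largest change; chromosome neighbours were named by position, and DNMT3L after its values were seen. Alternatives were other scalings, filters, DESeq2 1.42.0, limma-voom, a replicate block, leaving out each library, a minimum fold of 1.2, a threshold of 0.01 and the neighbour correction.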

Additional observations from a re-analysis of the deposited data

How the results depend on the processing

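The calls of the 10 genes (4 higher, 1 lower) were the same under the other scalings and filters, DESeq2, limma-voom, the threshold of 0.01 and each library left out. Leaving out a library kept UHRF1 between -0.50 and -0.48, TET1 between 0.57 and 0.66, EZH2 between 0.27 and 0.30, DNMT1 between 0.17 and 0.19 and DNMT3A between 0.18 and 0.24 on the log2 scale. The log2 difference of the TET2 to TET3 ratio then ranged from -0.026 to 0.016 and that of SUZ12 to EED from -0.14 to 0.0090, so both changed sign near 0. Without wild-type replicate 1 they were -0.026 and 0.0090, and TET2 to TET3 without knockout replicate 1 was -0.018.

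With a minimum fold of 1.2 in edgeR, 1 of the 10 genes was higher and 1 lower. DNMT1 (0.18), DNMT3A (0.21) and EZH2 (0.28) were no longer called. The lists had 23 genes higher and 18 lower, against 41 and 43. Over all tested genes the share called went from 60.1% to 26.2%. With 25 neighbours on each side removed, edgeR called 2 of the 10 higher and 0 lower, and 1 (DNMT1) was lower at an unadjusted p below 0.05; no other tool was run with this correction. UHRF1 was then at 0.025, DNMT1 at -0.060 and EZH2 at 0.044. Windows of 10 and 50 neighbours were added after the values were seen. With 10, 1 gene was higher (TET1) and SUZ12 passed the test (-0.10, edgeR adjusted p = 0.043), while DNMT1 (0.0020), UHRF1 (-0.040), DNMT3A (0.089) and EZH2 (0.031) did not. With 50, 2 were higher and DNMT1 was lower (-0.13, edgeR adjusted p = 0.0014), with UHRF1 at 0.011 and EZH2 at 0.065. The signs of DNMT1 and UHRF1 against their neighbours thus changed with the window, and the cause was not tested.

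Same-numbered libraries did not deviate together (correlations of 0.0097, -0.014 and 0.0094), and not every library correlated best with its own number. With the replicate number as a block, 4 of the 10 genes were higher and 1 lower, and 7913 genes were called in all against 7975. The DNMT1 to UHRF1 ratio was 0.67 as pairs, where 3 pairs cannot give an exact p below 0.25. The lists had 40 genes higher and 44 lower under the block.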

Other observations

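Families known to be held silent by Polycomb or by DNA methylation were read as well. Of 39 HOX genes, 20 were high enough to test, 7 higher and 5 lower in the knockout (median log2 fold change 0.23, against -0.00057 over all tested genes). The share called, 60.0%, is near the background of 60.1%. In the HOXA cluster 5 of 10 tested genes were higher and 2 lower, and in the HOXC cluster 2 of 9 were higher and 2 lower. None of the 10 HOXB genes passed the filter on low counts. HOXC12 went from 0.230 ± 0.0726 to 2.52 ± 0.339 CPM (3.43 ± 0.27 on the log2 scale), with 4, 6 and 8 counts in the wild-type libraries and 49, 57 and 75 in the knockout libraries. HOXA11 rose by 1.62 (SE 0.18) to 2.53 CPM. HOXD1 went down from 14.2 ± 0.505 to 1.44 ± 0.176 CPM (-3.30 ± 0.11 on the log2 scale), and HOXA7 fell by 1.87 (SE 0.27) from 2.36 CPM. HOXA genes thus went both ways, and the neighbour medians of the tested HOX genes lay between -0.02 and 0.16. The windows of the HOXA and HOXC genes hold other HOX genes. That of HOXD1, the only HOXD gene tested, does not. HOX clusters hold antisense genes, whose reads cannot be told apart here.

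Among 23 germline and cancer-testis genes, many of which are silenced by promoter methylation in somatic cells, 11 had no count in any library and 3 could be tested. DDX43 rose from 1.84 to 3.03 CPM and PIWIL2 fell from 0.763 to 0.384 CPM. Of a list of 23 imprinted genes, H19, KCNQ1OT1 and MEG3 were not in the count table. Of the 12 tested, 4 were higher and 2 lower (median -0.02), a share called of 50% against 60.1% of all tested genes. Whether each is imprinted in these cells was not tested. IGF2 rose by 0.69 (SE 0.05) and its clearance receptor gene IGF2R by 0.60 (SE 0.03), and MEST (-0.68 ± 0.07) and SGCE (-0.31 ± 0.05) fell. With the neighbour median removed, SGCE was at -0.04 and not called, and IGF2R at 0.34 and still called. DNA methylation and histone marks themselves were not measured.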
